A study of Mus musculus with 7 samples.

Results

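The 10 brush border hydrolases described here are Sis, Mgam, Lct, Treh, Anpep, Enpep, Dpp4, Mep1a, Mme and Alpi, taken as a list of named genes from the 19938 mouse genes that the arrays measured with a probe set of 1 gene symbol. Each of the 10 had 1 probe set, so no choice among probe sets was needed. RNA from intestine of mice with a knockout (KO) of Atg4b and of wild-type (WT) mice, all on the C57Bl6/129Sv background and 3 months old, was hybridised to 7 one-colour Affymetrix arrays. The KO groups were untreated ileum (1 array), untreated colon (1 array) and colon after dextran sulfate sodium, DSS (2 arrays, KO DSS replicates 1 and 2), and the WT groups were untreated ileum, untreated colon and colon after DSS, with 1 array each. DSS, which injures the colonic epithelium when drunk, was given by mouth for 7 days and followed by 3 days of water. The series asks what loss of Atg4b, a protease of the autophagy pathway, does to the intestinal transcriptome in chemically induced colitis.

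Brush border hydrolases are enzymes held in the membrane of the microvilli that cover absorptive enterocytes. They perform the last step of digestion at the cell surface, cutting disaccharides and short peptides into units that neighbouring transporters carry into the cell. In the mouse they are best known from the villi of the small intestine, and lactase is a textbook case of an enzyme made before weaning and reduced afterwards. Some of them are also found outside enterocytes: Anpep (CD13) on myeloid cells, Dpp4 (CD26) on T cells, Enpep on pericytes and early B cells, and Mme (CD10, neprilysin) on stromal and lymphoid cells.

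The regions before the transcription starts of 4 members are shown because these genes gave the main patterns of the arrays: Sis and Treh, which were near the dim end in every colon array, Mgam, which was bright in colon too, and Alpi, which stood apart in 1 DSS array. All are from RefSeq, build GRCm38.p6, and run 5′ to 3′ from 250 bases before to 50 bases after the annotated start. Capitals mark matches, on either strand, to the Cdx core TTTAT, the GATA core GATAA and the HNF4 site CAAAGTCCA. Matches to TTTAT can overlap TATA-like stretches.
Sis (chr3:72967814-72968113, minus strand): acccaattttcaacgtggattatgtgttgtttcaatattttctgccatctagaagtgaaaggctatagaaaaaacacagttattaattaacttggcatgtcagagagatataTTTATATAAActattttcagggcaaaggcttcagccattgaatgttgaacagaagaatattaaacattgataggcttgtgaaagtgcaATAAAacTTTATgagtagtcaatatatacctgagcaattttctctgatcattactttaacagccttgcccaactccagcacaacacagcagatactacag
Mgam (chr6:40628581-40628880, plus strand): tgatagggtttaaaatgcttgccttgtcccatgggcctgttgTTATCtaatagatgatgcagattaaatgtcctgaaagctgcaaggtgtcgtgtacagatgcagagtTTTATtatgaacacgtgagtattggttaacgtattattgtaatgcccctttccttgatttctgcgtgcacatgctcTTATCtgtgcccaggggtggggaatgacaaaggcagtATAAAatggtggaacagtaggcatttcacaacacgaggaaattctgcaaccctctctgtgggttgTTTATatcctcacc
Treh (chr9:44672983-44673282, plus strand): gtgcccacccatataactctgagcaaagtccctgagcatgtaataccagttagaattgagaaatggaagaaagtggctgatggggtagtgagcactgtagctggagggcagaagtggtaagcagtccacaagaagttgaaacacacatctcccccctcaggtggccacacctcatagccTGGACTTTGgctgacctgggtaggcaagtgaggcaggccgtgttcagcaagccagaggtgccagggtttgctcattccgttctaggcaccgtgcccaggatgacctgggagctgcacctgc
Alpi (chr1:87101557-87101856, minus strand): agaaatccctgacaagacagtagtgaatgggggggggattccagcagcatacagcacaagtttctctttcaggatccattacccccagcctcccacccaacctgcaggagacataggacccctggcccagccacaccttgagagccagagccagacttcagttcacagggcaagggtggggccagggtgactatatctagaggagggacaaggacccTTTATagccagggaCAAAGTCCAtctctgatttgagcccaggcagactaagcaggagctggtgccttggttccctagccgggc

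The Sis window held 4 matches to TTTAT. The HNF4 site lay 71 bases before the start of Treh and 19 bases before that of Alpi, and 0.475% of the 32851 promoter windows in the RefSeq table held it. The shorter cores are common, with TTTAT in 40% and GATAA in 25.4% of all windows. They were found in 7 and 5 of the 12 windows of the 10 members, 3 of which belong to Mme. These are matches of letters only, and binding was not measured. Factors that read such sites did not all go the same way. Hnf4g, Cdx2 and Gata5 were higher in ileum by 2.44 ± 0.15, 1.47 ± 0.30 and 4.49 ± 0.16 log2 units (SE). Their adjusted p in limma was 0.000288, 0.0318 and 4.55e-05. Cdx1 (-0.43 ± 0.11, adjusted p = 0.0723), Gata4 and Gata6 (0.15 ± 0.12 each, adjusted p = 0.524 and 0.508) did not pass. Hnf4a stood at 12.39 and 12.42 in KO and WT ileum against 11.95 and 12.24 in KO and WT control colon.

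Array medians lay between 121.4 and 126.45 intensity units. Values below are log2 intensities, which cannot be set against each other between genes since probes differ in brightness. Atg4b read 5.39 to 5.45 in the 4 KO arrays and 7.35 to 7.72 in the 3 WT arrays, so each array matched its genotype label. The X-inactivation RNA Xist was at 12.16 to 12.55 on the 3 DSS arrays and at 5.19 to 5.52 on the 4 untreated arrays, and the Y-linked Eif2s3y was at 4.28 to 4.39 on the DSS arrays and 9.39 to 9.77 on the untreated ones. These markers went against the labelled sex on 3 arrays, all WT. DSS and sex as the markers give it therefore cannot be told apart in any gene. With 5 of the 6 groups at a single array, precision is limited by the number of arrays. Nothing in the labels tells whether the arrays hold separate animals, nor whether ileum and colon of untreated mice came from the same animals. In the fit of condition plus genotype, any change of the KO minus WT difference between conditions counts as error. The only replicates that add to that error are the KO DSS arrays. A p-value of that fit therefore does not reflect replicate spread alone, and the spread of these arrays may be technical.

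In untreated mice, ileum had higher values than colon for the sugar-splitting enzymes other than Lct, for the peptidases other than Mep1a, whose difference did not pass, and for the phosphatase. Of the 10 members, 8 were higher in ileum at an adjusted p under 0.05 (2 against 2 arrays), with log2 differences between 1.27 and 8.23, and 0 were lower. Over all genes, 5.94% were higher and 3.22% lower (1184 and 642 genes, or 1074 and 928 under quantile normalization and 931 and 861 with arrays centred on pan-epithelial markers). The median difference was 3.94 over the 10 members and -0.02 over all genes. Both ileum arrays lay above both control colon arrays in 9 members, all but Lct, and in 25.8% of all genes. In bulk tissue, fewer cells of a type and less RNA per cell cannot be told apart.

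**Figure D1:**
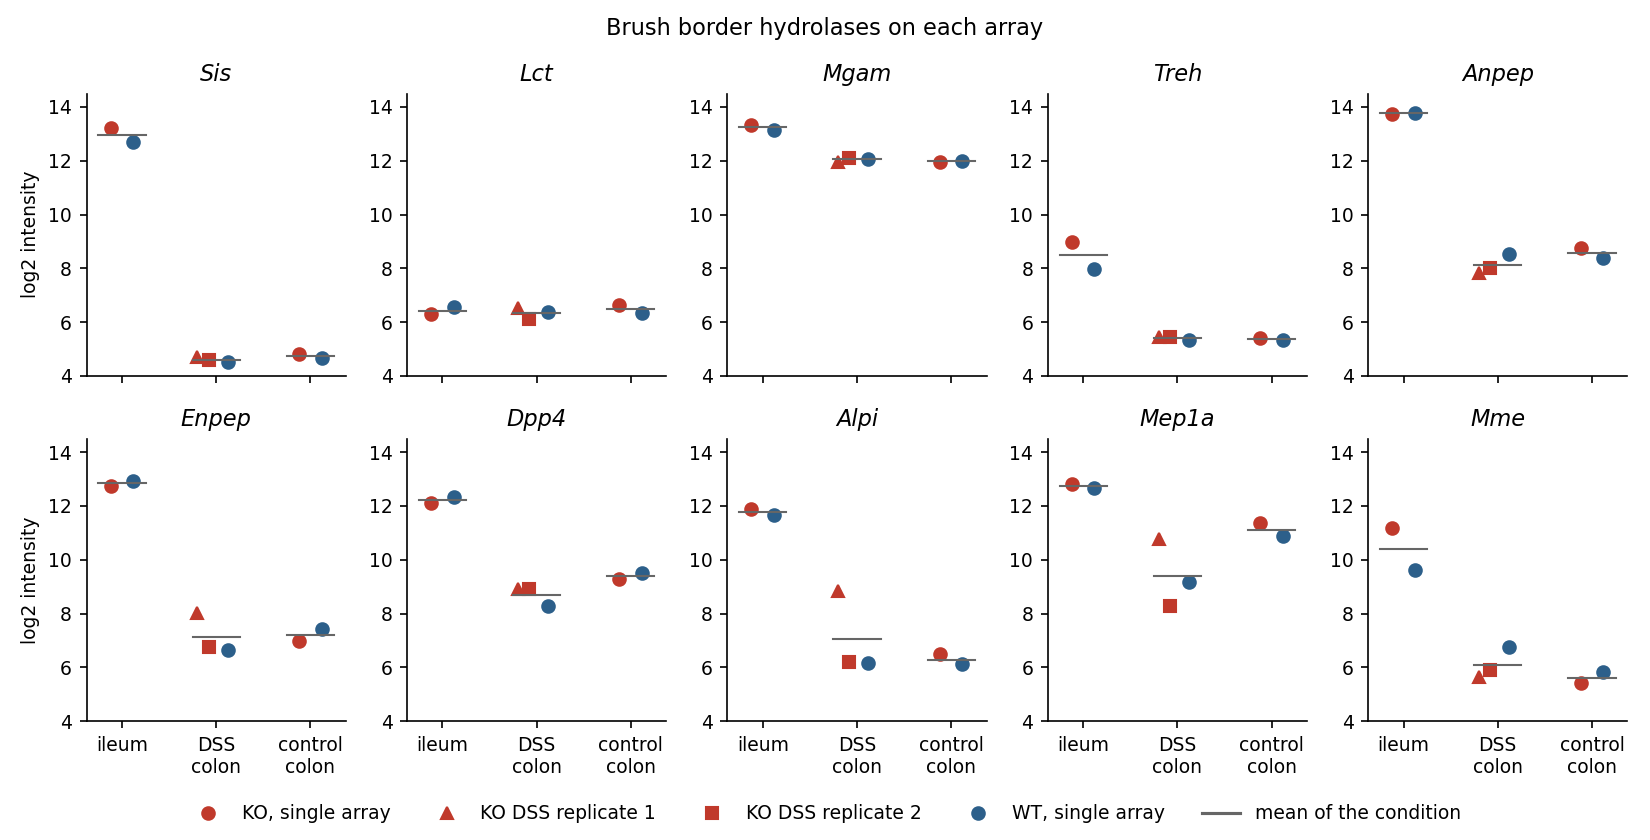
Log2 intensity of each brush border hydrolase on the 7 arrays, with KO in red and WT in blue, by condition; grey lines are condition means. Ileum lies above control colon in 9 of the 10 genes, as in 25.8% of all genes, and Lct overlaps. KO DSS replicate 1 stands well above the other DSS arrays in Alpi, Enpep and Mep1a. It exceeds both control colons in Alpi and Enpep and lies below both in Mep1a.

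Among the sugar-splitting enzymes, sucrase-isomaltase (Sis), which cuts sucrose and the branch points of starch, differed most. It read 13.23 and 12.71 in KO and WT ileum against 4.82 and 4.67 in KO and WT control colon. Every colon value, DSS included, lay under the lower quartile of its array. The difference was 8.23 ± 0.14 log2 units (SE, adjusted p = 3.39e-06), about 299-fold in fitted intensity and rank 3 by size among 19938 genes. A fold against such dim values is uncertain.

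Maltase-glucoamylase (Mgam), which releases glucose from starch fragments, differed least among the members that passed. Its log2 intensity was 13.33 and 13.16 in KO and WT ileum and 11.97 and 11.98 in KO and WT control colon. It was far above the upper quartile of all genes in both tissues, and the difference was 1.27 ± 0.12 (adjusted p = 0.00174). Trehalase (Treh), which splits the fungal and insect sugar trehalose, read 8.99 and 7.98 in KO and WT ileum against 5.41 and 5.35 in KO and WT control colon, a difference of 3.10 ± 0.24 (adjusted p = 0.000755). Like Sis, Treh lay under the lower quartile of genes on all 5 colon arrays.

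Lactase (Lct), the milk-sugar enzyme, showed no such step. It read 6.30 and 6.56 in KO and WT ileum, and 6.65 and 6.35 in KO and WT control colon, below the median of all genes on each of these arrays. The difference was -0.07 with a 95% confidence interval of -0.54 to 0.39 (adjusted p = 0.872), an interval that leaves out every shift seen in the 8 members that passed.

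The exopeptidases, which remove residues from peptide ends, were all higher in ileum. Aminopeptidase N (Anpep) read 13.75 and 13.79 in KO and WT ileum against 8.75 and 8.38 in KO and WT control colon. Aminopeptidase A (Enpep), which removes acidic residues, read 12.75 and 12.93 in KO and WT ileum against 6.98 and 7.41 in KO and WT control colon. Dipeptidyl peptidase 4 (Dpp4), which cuts after proline or alanine, read 12.11 and 12.34 in KO and WT ileum against 9.28 and 9.51 in KO and WT control colon. The ileal arrays of each gene agreed within 0.24 log2 units, while the tissue differences were 5.20 ± 0.24, 5.65 ± 0.45 and 2.83 ± 0.24, with adjusted p of 9.58e-05, 0.000892 and 0.00113. Beside Dpp4, 3 of 9 T cell markers were higher in ileum too (Cd3g, Cd3e and Cd8a, by 2.55, 1.58 and 1.38), with a list mean of 7.27 and 7.11 in KO and WT ileum and 6.45 and 6.49 in KO and WT control colon, and their part in the Dpp4 difference was not tested.

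Of the endopeptidases, Mme passed and Mep1a did not. Neprilysin (Mme), which cuts within small peptides, read 11.18 and 9.63 in KO and WT ileum against 5.41 and 5.84 in KO and WT control colon. The KO control colon value lay under the lower quartile of genes on its array. Mme was higher in ileum by 4.78 ± 0.56 (adjusted p = 0.0037). The difference was 3.64 without KO ileum and 5.93 without WT ileum, and without the KO control colon it did not pass (4.52, adjusted p = 0.0677). The meprin alpha subunit (Mep1a), a secreted or membrane-bound metalloprotease, read 12.80 and 12.67 in KO and WT ileum against 11.36 and 10.88 in KO and WT control colon. The groups did not overlap, but the difference of 1.61 ± 0.71 did not pass (adjusted p = 0.25). The SE of the fit is drawn from all 7 arrays, among them the KO DSS pair at 10.76 and 8.27. Without KO DSS replicate 1 the same difference had an SE of 0.30 (adjusted p = 0.0174), and without replicate 2 an SE of 0.34 (adjusted p = 0.049).

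Intestinal alkaline phosphatase (Alpi), which removes phosphate from lipids and bacterial endotoxin, read 11.88 and 11.66 in KO and WT ileum against 6.48 and 6.11 in KO and WT control colon. The difference was 5.47 ± 0.78 (adjusted p = 0.00815), with the widest SE among the 10. It was not called when 1 untreated array was left out: 5.12 without WT ileum, 5.83 without KO ileum, 5.72 without WT control colon and 5.22 without KO control colon, with adjusted p of 0.068, 0.0586, 0.0744 and 0.108. Without KO DSS replicate 1 its SE was 0.13.

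**Figure D2:**
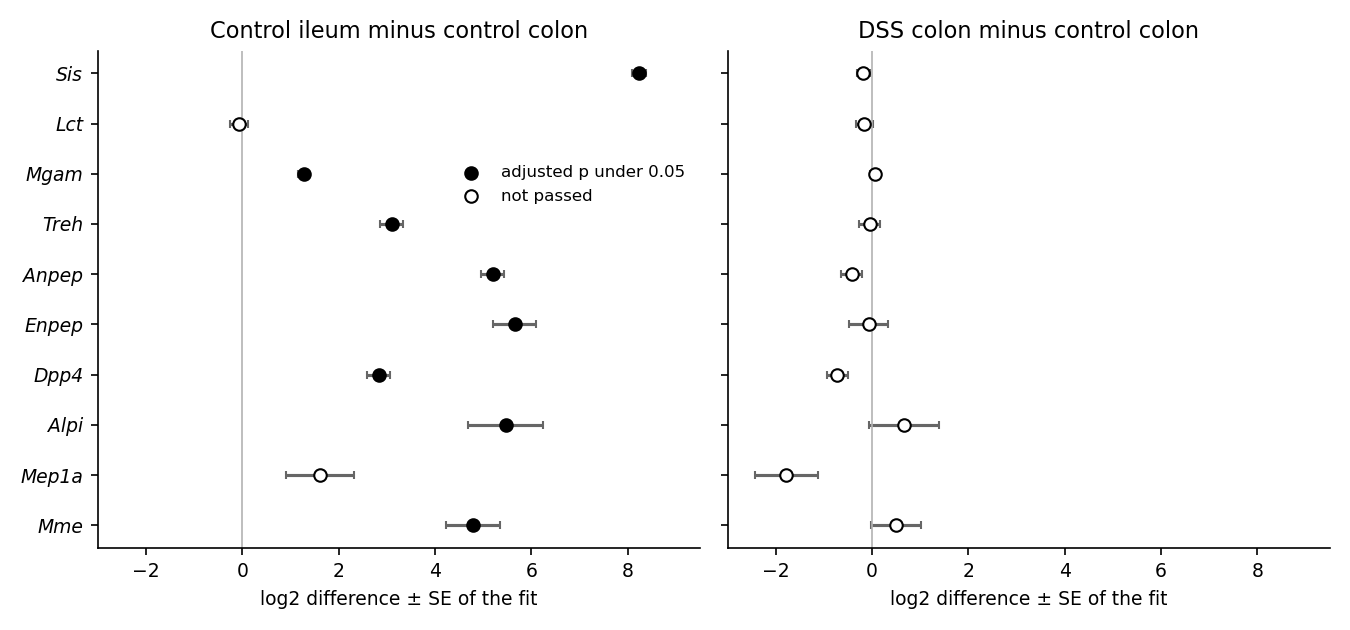
Log2 difference and standard error (limma) of each of the 10 genes, between untreated ileum and colon (left, 2 against 2 arrays) and between DSS and control colon (right, 3 against 2 arrays); filled points had an adjusted p under 0.05. The left panel has 8 filled points and the right panel none.

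Genes that work beside the hydrolases were set next to them from lists chosen for this purpose. Of 15 transporters of the brush border and enterocyte, most of them carriers of sugars, amino acids or peptides, 12 were higher in ileum and 0 lower, with a median of 1.63. The neutral amino acid carrier Slc6a19 (6.26 ± 0.12), the cystine and dibasic amino acid pair Slc3a1 (5.25 ± 0.88) and Slc7a9 (5.12 ± 0.26) and the anion exchanger Slc26a6 (4.37 ± 0.12) differed most. Of 14 other surface hydrolases measured, 5 were higher in ileum and 2 lower, with Vnn1, Naaladl1 and Xpnpep2 at 5.73 ± 0.26, 5.35 ± 0.14 and 4.56 ± 0.53. The partner subunit of meprin, Mep1b, was higher by 2.93 ± 0.25 (adjusted p = 0.00113). On the lower side of that list were the carboxypeptidase Cpm (-1.74 ± 0.33) and the ecto-nucleotidase Nt5e (-1.50 ± 0.23).

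The list of microvillus scaffold genes had a smaller median. Of 16 structural genes 9 were higher in ileum, with a median of 0.72, led by the actin bundler Pls1 (1.66 ± 0.14), villin Vil1 (1.28 ± 0.10), the motor Myo1a (1.25 ± 0.15) and the intermicrovillar cadherin Cdhr2 (1.24 ± 0.16). Of 13 transcription factors of enterocytes 6 were higher and 1 lower, with Gata5 at 4.49 ± 0.16, Maf at 3.83 ± 0.21, Hnf4g at 2.44 and Cdx2 at 1.47. Of 12 pan-epithelial markers 2 were higher in ileum and 1 lower. Their mean was 11.79 and 11.98 in KO and WT ileum and 11.72 and 11.86 in KO and WT control colon. With each array centred on that mean, which moves the median difference of all genes to -0.12, 8 members were again higher in ileum. Among markers of other cells, 4 of 8 adipocyte, 3 of 10 macrophage and 1 of 10 neutrophil genes were higher in ileum and 2 of 8 B cell genes lower, while 0 of the smooth muscle, fibroblast and endothelial or pericyte genes passed. Of 9 colonocyte markers 6 were lower and 1 higher, with Aqp8 and Car1 at -5.98 and -5.78.

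**Figure D3:**
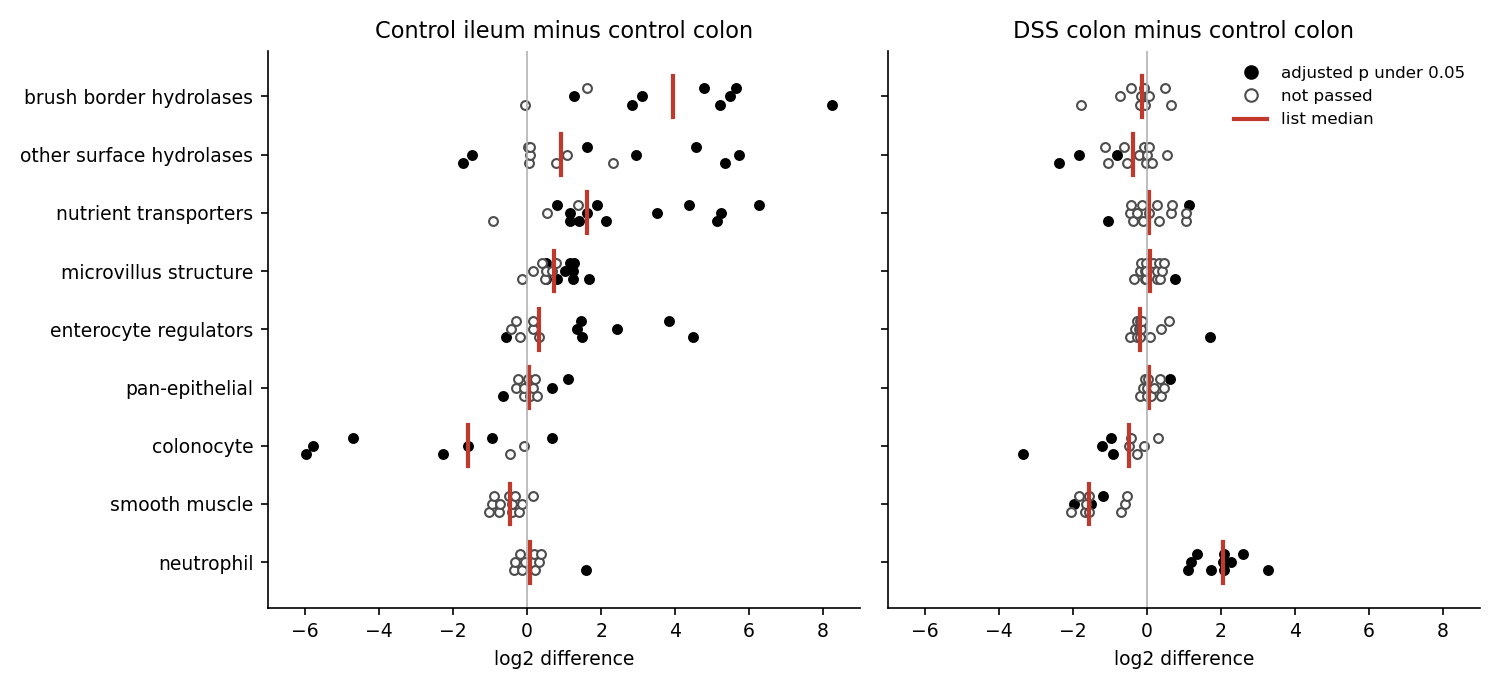
Log2 differences of the members and of companion and marker genes between untreated ileum and colon (left) and between DSS and control colon (right); each point is a gene, filled where the adjusted p was under 0.05, and red bars are list medians. The hydrolases have the largest median of the 9 lists on the left (3.94) and a median of -0.12 on the right.

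No brush border hydrolase passed the test between DSS and untreated colon, and the widest differences were those of Mep1a and Dpp4, both lower after DSS. By the adjusted p of limma (3 against 2 arrays) 0 of the 10 members rose and 0 fell, while 7.2% of all genes were higher and 3.43% lower. That is 1436 and 684 genes, or 1159 and 961 with arrays centred on their medians, 1200 and 1112 under quantile normalization and 792 and 1404 with arrays centred on pan-epithelial markers. Mep1a and Dpp4 were lower at an unadjusted p under 0.05, as were 10% of all genes, against 2 of 10 members. The median difference was -0.12 over the members and -0.01 over all genes.

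Mgam had the narrowest interval of the 10. It read 11.95 and 12.11 in KO DSS replicates 1 and 2 and 12.08 in WT DSS colon, against 11.97 and 11.98 in KO and WT control colon. The DSS values lay on both sides of the control values, and the difference was 0.06 with a 95% confidence interval of -0.20 to 0.33. Sis (4.72, 4.58 and 4.52 in KO DSS replicates 1 and 2 and WT DSS colon) and Treh (5.44, 5.43 and 5.32 in the same order) were again under the lower quartile, with differences of -0.18 ± 0.13 and -0.05 ± 0.22. Lct read 6.53 and 6.10 in KO DSS replicates 1 and 2 and 6.38 in WT DSS colon, a difference from control colon of -0.16 ± 0.18.

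Mep1a had the widest difference, and its 3 DSS arrays all lay below both control colons. It read 10.76 and 8.27 in KO DSS replicates 1 and 2 and 9.17 in WT DSS colon, against 11.36 and 10.88 in KO and WT control colon. The fitted difference was -1.78 ± 0.65 (95% confidence interval -3.34 to -0.21, adjusted p = 0.143). Over 16 alternatives it ran from -2.40, without KO DSS replicate 1, to -1.16, and it was called in that 1 fit alone. Its partner Mep1b read 9.43 and 8.81 in KO DSS replicates 1 and 2 and 8.98 in WT DSS colon, against 8.89 and 9.43 in KO and WT control colon, a different order of the arrays. Of 9 colonocyte markers 4 fell with DSS, with a list mean of at most 11.30 on each of the 3 DSS arrays, against 11.92 and 12.09 in KO and WT control colon. Their part in the values of Mep1a was not tested.

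Dpp4 was the other member with all DSS arrays below both control colons, as were 18% of all genes, a share close to the 2 of 10 members. It read 8.92 and 8.90 in KO DSS replicates 1 and 2 and 8.27 in WT DSS colon, against 9.28 and 9.51 in KO and WT control colon. The difference was -0.72 ± 0.22 (adjusted p = 0.0948), with -0.37 left without the WT DSS array (adjusted p = 0.242). With arrays centred on the pan-epithelial markers it passed at -0.87 (adjusted p = 0.0302, with a median of all genes of -0.17). With labelled sex as a covariate it passed at -0.80 (adjusted p = 0.0146). The label male falls on KO in untreated tissue and on WT in DSS colon. That covariate therefore acts as the genotype-by-DSS term and is no adjustment for sex.

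Anpep and Mme did not pass between DSS and control colon either. Anpep read 7.82 and 8.01 in KO DSS replicates 1 and 2 and 8.53 in WT DSS colon, against 8.75 and 8.38 in KO and WT control colon (-0.42 ± 0.22, adjusted p = 0.294). Mme read 5.64 and 5.91 in KO DSS replicates 1 and 2 and 6.75 in WT DSS colon, against 5.41 and 5.84 in KO and WT control colon (0.49 ± 0.52, adjusted p = 0.63). Both sets of values overlap between the conditions. Markers of myeloid cells moved with DSS beside them. Higher were 10 of 10 neutrophil markers, with a list median of 2.07, and 4 of 10 macrophage markers, with a list median of 0.63. The neutrophil list means were 7.62 and 7.91 in KO DSS replicates 1 and 2 and 8.06 in WT DSS colon, against 5.96 and 5.81 in KO and WT control colon. The part of these cells in the values of Anpep and Mme was not tested.

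**Figure D4:**
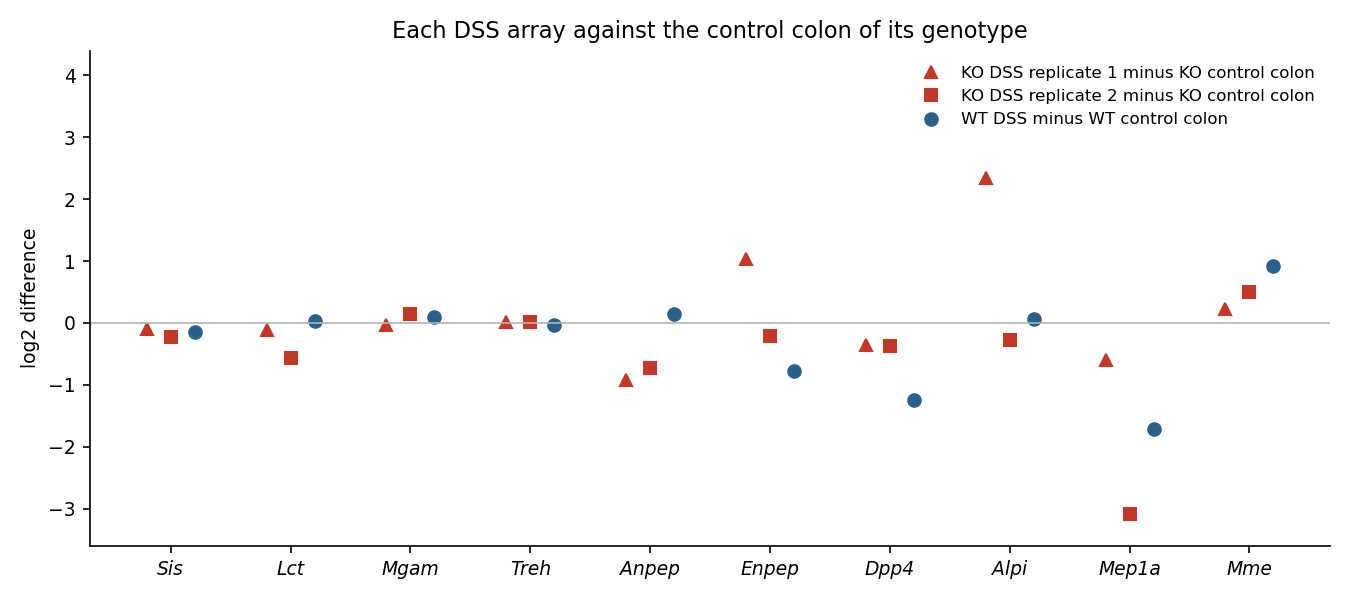
Log2 difference of each DSS colon array from the untreated colon array of the same genotype, for the 10 genes; triangles and squares are KO DSS replicates 1 and 2, blue circles are WT. Mep1a, Dpp4 and, by at most 0.23, Sis are below 0 on all 3 arrays, Mme is above 0 on all 3, and Alpi is at 2.35 on KO DSS replicate 1 only.

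Enpep and Alpi were set apart by 1 array. Alpi read 8.83 in KO DSS replicate 1 but 6.21 in replicate 2 and 6.17 in WT DSS colon, against 6.48 and 6.11 in KO and WT control colon. Enpep read 8.02 in KO DSS replicate 1 but 6.77 in replicate 2 and 6.64 in WT DSS colon, against 6.98 and 7.41 in KO and WT control colon. KO DSS replicate 1 exceeded both control colons in each gene. The other DSS arrays lay between the control colons for Alpi and below both for Enpep. The DSS difference of Alpi was 0.66 ± 0.72 with all arrays and -0.10 without KO DSS replicate 1, and neither passed. That of Enpep was -0.07 ± 0.41 (adjusted p = 0.943).

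Between the KO DSS arrays themselves, 3 members were higher in replicate 1 by more than 1 log2 unit: Alpi by 2.62, Mep1a by 2.49 and Enpep by 1.24. Of all genes 0.747% were higher in replicate 1 and 0.497% lower by that margin, and 0 members were lower. The other 7 members differed by -0.27 to 0.44. Pairs of single arrays carry no test. The mean of 10 endothelial and pericyte markers was also highest in replicate 1, at 8.65, with 8.11 in replicate 2, 7.75 in WT DSS colon, and 8.12 and 8.22 in KO and WT control colon. The mean of 12 smooth muscle markers was 10.62 and 9.71 in KO DSS replicates 1 and 2 and 9.13 in WT DSS colon, against 11.14 and 11.18 in KO and WT control colon. The part of these cells in the values of Enpep was not tested.

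Other genes of the ileum were followed on the same arrays. Outside the members, 53 genes were higher in ileum by more than 4 log2 units at an adjusted p under 0.05. Of these, 13 exceeded both control colons by more than 1 log2 unit in KO DSS replicate 1, 9 in replicate 2 and 11 in WT DSS colon. Slc3a1, Slc13a1 (a sulfate carrier), Fabp2 (the intestinal fatty acid binding protein) and Tmigd1 did so in replicate 1 alone of the 3 DSS arrays. Fabp2 read 10.68 in KO DSS replicate 1, 7.78 in replicate 2 and 7.73 in WT DSS colon, against 8.42 and 7.59 in KO and WT control colon, the same order of arrays as Alpi. The median of the 53 genes over control colon was 0.29 and 0.11 in KO DSS replicates 1 and 2 and -0.01 in WT DSS colon. The same rule was met by Alpi alone, in KO DSS replicate 1, among the 5 members with ileal differences this large. The share of all genes that meets it was not counted. The 53 genes and the 5 members were selected on their difference from the same control colon arrays, so these counts carry no test.

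**Figure D5:**
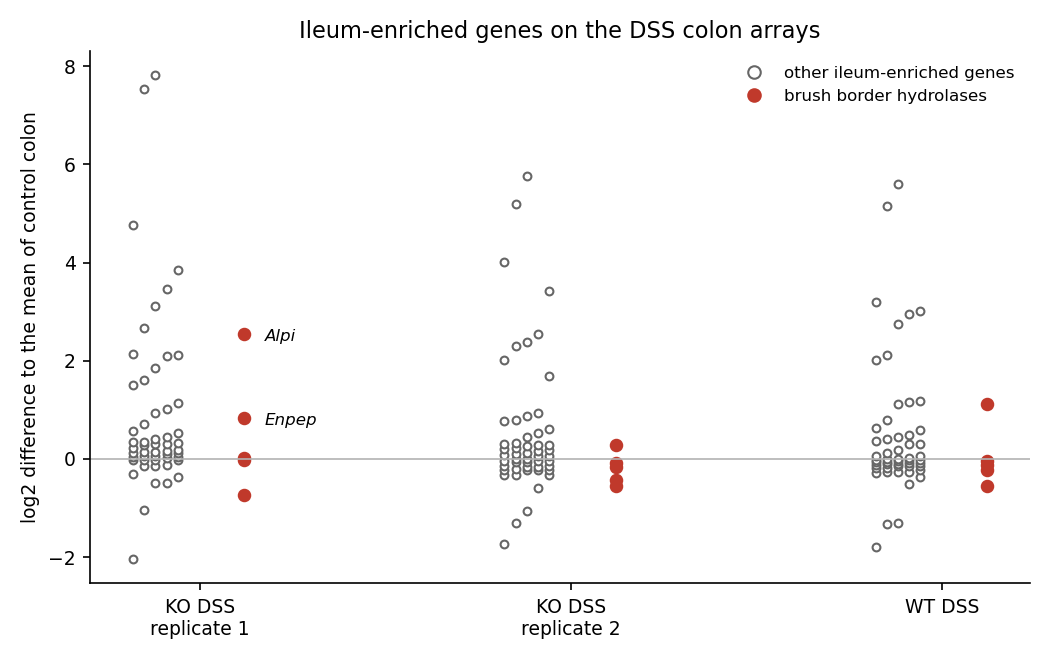
Log2 difference of each DSS colon array from the mean of the untreated colon arrays, for genes higher in ileum by more than 4 log2 units; open points are the 53 other genes and red points the 5 brush border hydrolases. Medians of the open points are 0.29, 0.11 and -0.01 from left to right, and Alpi is the highest red point of KO DSS replicate 1.

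Among other hydrolases and partners of the brush border, a few genes passed the test with DSS. Over all genes 7.2% were higher and 3.43% lower, and 1 passing gene in a list of 12 to 16 is near those shares. Of the 14 other surface hydrolases 3 fell and 0 rose. Naaladl1, a peptidase that like Folh1 belongs to the glutamate carboxypeptidase family, read 5.63 and 5.93 in KO DSS replicates 1 and 2 and 5.88 in WT DSS colon, against 7.59 and 7.75 in KO and WT control colon (-1.84 ± 0.13, adjusted p = 0.00133). Cpm fell by 2.37 ± 0.30 (adjusted p = 0.00803) and the angiotensin-converting enzyme Ace by 0.81 ± 0.11 (adjusted p = 0.01) on the log2 scale. Of the nutrient transporters the peptide carrier Slc15a1 fell (-1.04 ± 0.24, adjusted p = 0.0437) and the sugar carrier Slc5a9 rose (1.14 ± 0.20, adjusted p = 0.0207). In the microvillus list Eps8, an actin-capping protein, rose by 0.76 ± 0.14 (adjusted p = 0.025) and 15 of 16 genes did not pass. Prdm1, the repressor that holds back adult enterocyte genes in the suckling mouse gut, was the 1 of 13 enterocyte regulators that passed, at 1.70 ± 0.19. Of 12 pan-epithelial markers 1 rose, Krt20 (0.64 ± 0.11, adjusted p = 0.0213). The list averaged 11.92 and 11.93 in KO DSS replicates 1 and 2 and 11.94 in WT DSS colon, against 11.72 and 11.86 in KO and WT control colon.

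No hydrolase differed between the genotypes by the test. For KO against WT over all conditions (4 against 3 arrays), 0 of the 10 members had an adjusted p under 0.05 in limma and 0.00502% of all genes passed, Atg4b alone. At an unadjusted p under 0.05 there were 0 members and 3.61% of all genes. The differences ran from -0.15 for Anpep to 0.72 for Alpi, with a median of 0.12 against -0.01 over all genes. The narrowest intervals were those of Mgam (0.03, 95% confidence interval -0.20 to 0.25) and Sis (0.25, -0.01 to 0.51), and the widest was that of Alpi (0.72, -0.74 to 2.18), an interval that holds several-fold differences in the KO.

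In ileum the 2 genotypes could be set side by side as single arrays without a test. Mme was higher in KO ileum by 1.55 and Treh by 1.02 log2 units, and Sis by 0.52, while the other 7 differed by -0.26 to 0.22. Genes higher in KO ileum by more than 1 log2 unit made up 0.622% of all genes, and lower ones 0.266%. In control colon, where 0.176% of genes were higher and 0.286% lower in KO by that margin, 0 members were, with differences from -0.43 to 0.48. Fibroblast markers were also higher in KO than in WT ileum, with a list mean of 9.60 and 8.95, as were macrophage markers at 8.87 and 8.27. In control colon these means were 9.37 and 9.19, and 8.15 and 7.96. In DSS colon the fibroblast mean was 9.68 and 9.19 in KO replicates 1 and 2 and 8.68 in WT, and the macrophage mean 8.78, 8.90 and 8.78. Mme was lower in KO than in WT in both colon conditions. The part of these cells in the value of Mme was not tested.

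Whether the genotype difference changed with DSS was asked by an interaction term. Among the members 0 passed, as among all genes (0%). Dpp4 (0.88 ± 0.19) and Anpep (-0.77 ± 0.25) were the 2 members with an unadjusted p under 0.05, which 3.2% of all genes had (639 of 19938), and both had an adjusted p of 1. The KO minus WT difference of Dpp4 was 0.64 in DSS colon, -0.23 in control colon and -0.24 in ileum, and that of Anpep was -0.61, 0.36 and -0.04. Without KO DSS replicate 2, which leaves replicate 1 as the lone KO DSS array and assumes it varies like the other groups, Alpi (2.37), Enpep (1.68) and Mep1a (1.29) passed with adjusted p of 0.00198, 0.0111 and 0.0473, as did 1.4% of all genes in that fit (279 genes). Without replicate 1 none of the 3 passed, and they stood at -0.25, 0.44 and -1.20, so the sign for Alpi and Mep1a turned with the KO DSS array that was kept.

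Genes whose profile over the 7 arrays was most like that of a member were found by Pearson correlation among 9746 genes brighter than the median. These correlations are descriptions over 7 arrays that share the step between ileum and colon. Sis was closest to the chemokine Ccl25, apolipoprotein Apoa1 and the Paneth cell lysozyme Lyz1 (r = 0.9996, 0.9996 and 0.9994). Anpep was closest to Tm6sf2, Apoa1 and Slc41a3 (each 0.995), Treh to Lpcat3, the vitamin B12 receptor subunit Amn and Pnliprp2 (0.994, 0.993 and 0.992), and Mgam to Ppp2r5d, the lipoprotein assembly factor Mttp and Ift20 (0.996, 0.994 and 0.993). Enpep was closest to Gsdme, Cdhr2 and Maf (0.998, 0.997 and 0.997), and Dpp4 to Rtkn, the microvillar cadherin Cdhr5 and Slc2a9 (0.995, 0.994 and 0.993). Alpi, whose order of arrays includes the high KO DSS replicate 1, was closest to Fabp2, Iah1 and Slc3a1 (0.997, 0.991 and 0.990). Mep1a was closest to Reep3, Cth and Cers6 (0.989, 0.982 and 0.980), Mme to Tfg, Sec23a and Aco1 (0.996, 0.994 and 0.991), and Lct, with no step between the tissues, only reached 0.898 with Il20rb, 0.889 with Frmd6 and 0.880 with Wfdc11.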

How the data were processed

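Total RNA from ileum and colon was labelled with biotin by an Affymetrix sense target kit and hybridised to 1 array per sample, per the labels' protocols. The authors deposited 1 linear intensity per probe set and array. How they summarised and normalized these values was not given in the sources used here. They ran from 10.4 to 22236.4 with array medians of 121.4 to 126.45, so they were taken as normalized between arrays, and log2 was computed here. Of 35512 probe sets, 21789 carry 1 gene symbol in the platform annotation, and the one with the highest mean per gene was used (19938 genes). Normalization can remove shifts shared by all genes.

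Models were fitted across all genes with limma 3.58.1 (lmFit and eBayes, R 4.3.3): condition plus genotype with 3 residual degrees of freedom, and a genotype-by-DSS term with 2. P-values were adjusted by Benjamini-Hochberg over all genes, with a threshold of 0.05; ± is the standard error of the fit. Fits were tested on simulated data. The members and lists were chosen with earlier results of these data known. Named from each list were all members, at most the 4 largest differences that passed, and the 3 most correlated genes of each member. Cpm, Nt5e, Mep1b (for DSS), Hnf4a, Cdx1, Gata4, Gata6, Fabp2, Slc13a1 and Tmigd1 were named after their values were seen. Promoters are from RefSeq (GRCm38.p6), matched by symbol for all 10 members. Alternatives were quantile normalization, centring, a filter on dim genes, averaging of probe sets, a variance trend, labelled sex, a 6-group model, colon alone and leaving out each array. Figures were drawn with matplotlib 3.10.9.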

Additional observations from a re-analysis of the deposited data

Results flagged for a closer look

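All 10 members were screened for a KO minus WT difference of opposite sign in 2 conditions, in every array pair and by more than 0.5 log2 units. Mme alone met this rule, and the share of all genes that meets it was not counted. The KO minus WT difference of Mme was 1.55 in untreated ileum, where KO read 11.18 and WT 9.63. In DSS colon it was -0.98, where KO read 5.64 and 5.91 and WT 6.75. Control colon had the sign of DSS colon, at -0.43, where KO read 5.41 and WT 5.84. The values of KO control colon and KO DSS replicate 1 lay under the lower quartile of genes on their arrays. The difference between ileum and DSS colon alone was not tested. The fitted interaction of DSS colon against both untreated tissues was -1.53 ± 0.68 and did not pass (adjusted p = 1). It was -0.55 when an ileum array was left out, and ran from -2.52 to -0.55 over the alternatives. Group sizes of 1 and 2 arrays did not allow a search for outlying samples.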

How the results depend on the processing

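The 8 members higher in ileum were 8 again under quantile normalization, both centrings, the dim-gene filter (which removed Lct), averaged probe sets, the variance trend and labelled sex, 7 in the 6-group model (without Alpi, at 5.47 and adjusted p = 0.0816), and 6 to 9 when an array was left out. The count of members lower in DSS colon, 0, became 1 with centring on pan-epithelial markers, with labelled sex, and without KO DSS replicate 1 (range 0 to 1). For the interaction it became 3 without KO DSS replicate 2 (range 0 to 3). Lost or gained calls of members are given beside each result; the cause was not tested beyond the standard errors printed there. Over all genes, the tissue counts of 1184 higher and 642 lower were 506 and 258 in the 6-group model, and 384 to 1509 and 236 to 909 with an array left out. The DSS counts of 1436 higher and 684 lower were 1200 and 1112 under quantile normalization, 792 and 1404 with pan-epithelial centring, 211 and 86 in the 6-group model, and 100 to 2178 and 60 to 1371 with an array left out. The 1 gene passing for genotype, Atg4b, became 0 in the 6-group model, in colon alone and in 6 of the 7 fits that left out an array. The interaction count of 0 became 2 with the variance trend and ran from 0 to 279 with an array left out. The interaction could not be fitted without the WT DSS array, nor beside labelled sex. Labelled sex coincides with the genotype-by-DSS term on these arrays, so fits with it do not adjust for sex. No paired analysis was possible because only KO DSS colon holds numbered replicates. Signal near the lower quartile limits Sis and Treh in colon, and Mme, which lay under it on 2 colon arrays.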
